A study of Mus musculus with 2 samples.

Results

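The 219 genes described here lie on mouse chromosomes 1 to 19 and gained a difference between XX and XY gonadal somatic cells while the gonads were in culture. They were chosen from the measured values. In log2(CPM + 1), where CPM is the usual unit that scales all libraries to the same total count, a gene was kept when the XX and XY group means differed by less than 0.5 before culture and by at least 1 in the same direction after both 24 h and 72 h of culture with the solvent DMSO. Of 38293 genes on these chromosomes in a table of 42422 genes, 0.572% met this rule. They are 85 genes that were higher in XX cells (XX-higher) and 134 that were higher in XY cells (XY-higher) after culture. Because the rule used these differences, the XX and XY values below are a description and carry no test.

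Gonads with attached mesonephros were taken from E12.5 mouse embryos, wild type by the labels (a cross of Swiss mice with an *Oct4*-eGFP line on a 129svJT2 background), and cultured on membranes. The mesonephros was then removed, several gonads were pooled for each sample, and the GFP-negative somatic cells were sorted, a gate that removes germ cells, which carry the GFP. The 10 groups had 4 libraries each. At 0 h and with DMSO for 24 h or 72 h there was a group of each gonad type. The other 4 groups were XY only, treated for these times with 500 nM of either FGFRi (BGJ398, an inhibitor of the FGF receptors) or MEKi (PD0325901, an inhibitor of MEK1/2, the kinases that activate ERK1/2 in the MAPK pathway). XX gonads were not given an inhibitor in these data. The libraries were made in sets 3 and 4, with the 0 h, 24 h DMSO and 24 h MEKi groups in set 3 and the 24 h FGFRi group and all 72 h groups in set 4. Changes from 0 h to 24 h without inhibitor therefore lay within a set, whereas changes from 0 h to 72 h crossed sets. FGFRi and DMSO at 24 h lay in different sets, so that the inhibitor and the set cannot be told apart there, and only levels are given for that pair. The replicates were separate pools of gonads, and p-values measure the spread between these pools.

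The gonad is bipotential until Sertoli cells in XY gonads and pre-granulosa cells in XX gonads differentiate. Around and after this stage, XY gonads gain fetal Leydig cells, which make androgens, and a coelomic vessel, whereas ovarian somatic cells keep WNT and FOXL2 programmes. Genes that are already different at E12.5 include the well known markers of these cell types. The genes described here are those that were alike at that stage and came apart later, and none of the 23 Sertoli and 12 pre-granulosa markers listed was among them. Those markers matched the labels of the libraries. The summed Sertoli markers were 3465 to 3800 CPM in XY and 514 to 694 CPM in XX libraries at 0 h, and the summed pre-granulosa markers were 194 to 220 CPM in XY and 1848 to 2334 CPM in XX libraries. Total counts were 1380707 to 4836550 per library, with a median of 2248854.

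Several of the XX-higher genes are known as genes induced by interferon, among them *Isg15* (a ubiquitin-like modifier), *Rtp4* (a receptor transporter), *Ifit3* (a protein of the antiviral response) and *Oas1a*. *Mndal* and *Ifi203*, members of the interferon-inducible p200 family, were XY-higher. *Ifit3* and *Oas1a* are named after their values were seen. Because of these genes the promoters of the 189 protein-coding genes of the 219 were searched for GAAA, any 2 bases and GAAA, the core of the interferon-stimulated response element (ISRE), on both strands in the 250 bases before the annotated start of the canonical transcript. The motif was 1 of 7 searched, and it was chosen with the genes known. It lay in 7 of 74 XX-higher promoters (9.46%), 4 of 115 XY-higher promoters (3.48%) and 3.17% of 19308 promoters of protein-coding genes of chromosomes 1 to 19. A match describes the letters only. The 5 promoters of interferon-inducible genes with a match are shown 5′ to 3′ on the strand of the gene, from GRCm39, with the motif and its reverse complement in capitals, because these genes are followed through the results.
Isg15, chr4:156285304-156285553, minus strand: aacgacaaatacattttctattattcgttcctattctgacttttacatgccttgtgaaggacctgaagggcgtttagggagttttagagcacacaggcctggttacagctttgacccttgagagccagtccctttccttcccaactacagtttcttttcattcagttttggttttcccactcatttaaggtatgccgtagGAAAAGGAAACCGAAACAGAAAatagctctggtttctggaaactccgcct
Rtp4, chr16:23428396-23428645, plus strand: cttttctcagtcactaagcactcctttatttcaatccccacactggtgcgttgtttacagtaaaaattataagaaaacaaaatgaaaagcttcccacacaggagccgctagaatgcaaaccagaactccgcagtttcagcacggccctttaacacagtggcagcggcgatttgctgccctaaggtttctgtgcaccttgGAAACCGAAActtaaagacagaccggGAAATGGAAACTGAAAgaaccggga
Ifit3, chr19:34560649-34560898, plus strand: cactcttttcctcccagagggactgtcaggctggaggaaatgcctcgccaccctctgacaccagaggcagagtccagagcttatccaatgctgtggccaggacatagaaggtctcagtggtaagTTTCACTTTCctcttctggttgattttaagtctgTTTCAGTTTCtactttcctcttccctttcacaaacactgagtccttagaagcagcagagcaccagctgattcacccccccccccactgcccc
Mndal, chr1:173707736-173707985, minus strand: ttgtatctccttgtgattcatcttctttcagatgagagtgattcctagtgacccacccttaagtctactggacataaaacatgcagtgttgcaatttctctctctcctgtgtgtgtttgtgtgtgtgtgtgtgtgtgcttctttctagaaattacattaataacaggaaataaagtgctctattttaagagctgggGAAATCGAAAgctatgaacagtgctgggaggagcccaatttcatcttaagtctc
Ifi203, chr1:173770037-173770286, minus strand: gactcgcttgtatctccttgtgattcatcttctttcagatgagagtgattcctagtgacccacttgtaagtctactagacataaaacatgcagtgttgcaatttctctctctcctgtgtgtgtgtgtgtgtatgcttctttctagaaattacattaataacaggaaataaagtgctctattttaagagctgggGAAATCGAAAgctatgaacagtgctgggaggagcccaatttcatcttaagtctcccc
*Isg15* and *Rtp4* each held 3 matches, some of which overlap, and *Ifit3* held 2. The *Mndal* and *Ifi203* promoters shared a stretch of 115 identical bases that holds their match, and reads from such similar genes may be split between them in the counts. The promoter of *Oas1a* had no match in this window. Of the other motifs, AP-1 (TGANTCA) lay in 10.8% of XX-higher, 4.35% of XY-higher and 5.88% of all promoters. The metal response element (TGCGCNC) lay in 12.2%, 10.4% and 13.7%, the NR5A site (AAGGTCA) in 4.05%, 4.35% and 3.89%, and the GATA site (AGATAA) in 6.76%, 6.09% and 9.04%. The ETS site (CCGGAAG) lay in 2.70%, 1.74% and 7.23%, and the E-box (CACGTG) in 4.05%, 3.48% and 6.54%.

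The 3 genes just inside the 0 h limit were *Ier5l*, *B3galt1* and *Ntrk3*, whose XX minus XY differences at 0 h were -0.499, -0.497 and -0.493 in log2(CPM + 1). The 3 just outside it were *2900041M22Rik* at 0.501, *Krt18* at 0.507 and *C130075A20Rik* at -0.509. At the limit in culture, *Foxf1* (-1.0 at 24 h), *Deptor* (1.001 at 24 h) and *Egr2* (1.002 at 72 h) were just inside, and *Bach2* (-0.999 at 72 h), *Aif1l* (-0.998 at 24 h) and *Garem1* (-0.998 at both times) were just outside. The XX-higher genes had a median difference of 1.30 at 24 h (1.00 to 3.86) and 1.59 at 72 h (1.00 to 5.50). The XY-higher genes had a median of -1.41 at 24 h (-3.93 to -1.0) and -1.39 at 72 h (-3.22 to -1.01). The difference was larger at 72 h than at 24 h for 57 of 85 XX-higher and 69 of 134 XY-higher genes. All 4 libraries of the higher group lay above all 4 of the other group for 71 of 85 XX-higher genes at both 24 h and 72 h, and for 107 and 112 of 134 XY-higher genes. At 0 h this held in either direction for 4 XX-higher and 2 XY-higher genes. Over all 14292 genes of these chromosomes that passed a filter on low counts, 22.9% had no overlap between XX and XY libraries at 0 h, 24.9% at 24 h and 26.8% at 72 h. These counts follow from the rule and nothing is read from them. Many of the genes were low. The higher group had a mean of at least 5 CPM at both times for 55 of 85 and 87 of 134 genes, and 3 XX-higher and 1 XY-higher gene had no count in any 0 h library. At 1 to 2 CPM a library held only a few counts.

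In both directions the difference was mostly a gain on the higher side. A side was counted when its group mean was at least 0.5 away from that at 0 h in the direction of the difference. The later lower side was already under 1 CPM on average at 0 h for many genes. This held for 24 of the 85 XX-higher genes in XY cells and 46 of the 134 XY-higher genes in XX cells. In log2(CPM + 1) such a level can fall by less than 1, so for these genes the rule itself favoured a gain. At 24 h, within set 3, 52 of the 85 XX-higher genes were counted for a higher level in XX cells, 13 for a lower level in XY cells, 15 for both and 5 for neither. Of the 134 XY-higher genes, 105 were counted for a higher level in XY cells, 9 for a lower level in XX cells, 16 for both and 4 for neither. At 72 h, across sets, the counts were 52, 17, 14 and 2 of the XX-higher and 113, 8, 11 and 2 of the XY-higher genes. As background, 14.4% of all filtered genes of these chromosomes were up by this amount in XX cells at 24 h and 5.77% were down, with 21.6% up and 6.55% down in XY cells. At 72 h, 20.3% were up and 10.7% down in XX cells, and 24.8% up and 10.7% down in XY cells. The side was the same at both times for 68 of 85 XX-higher and 111 of 134 XY-higher genes. In bulk samples such as these, fewer cells of a type and less RNA per cell cannot be told apart.

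**Figure D1:**
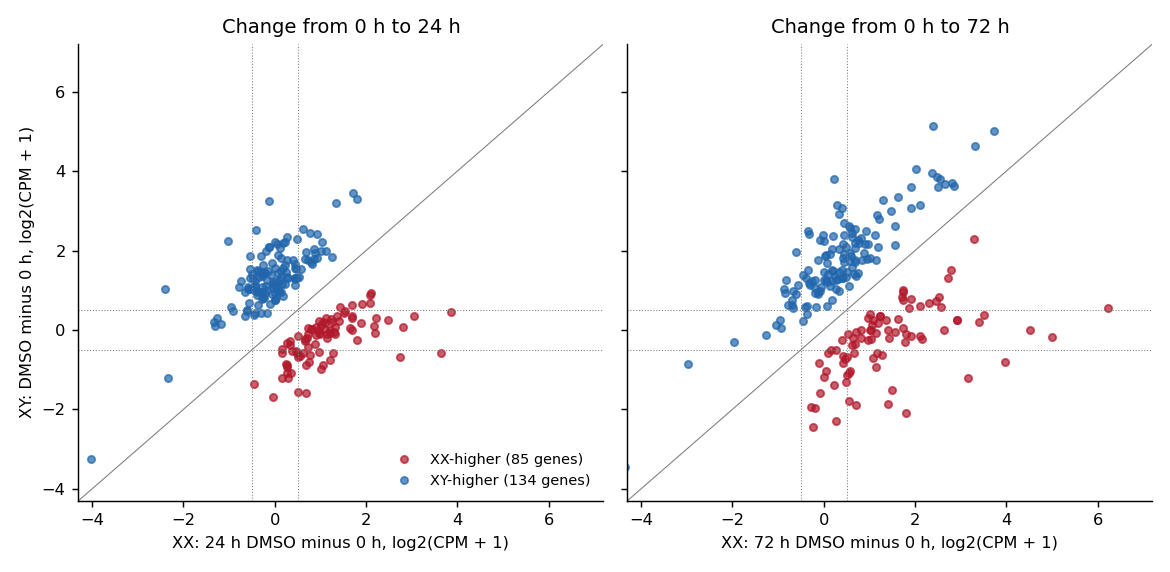
Change of each gene from 0 h in XX cells (x axis) and XY cells (y axis) with DMSO, in log2(CPM + 1), at 24 h (left) and 72 h (right). Each point is 1 of 85 XX-higher (red) or 134 XY-higher (blue) genes, the dotted lines mark 0.5 in either direction and the diagonal marks equal change. Most red points extend to the right and most blue points upwards, and blue points also lie to the right of 0 at 72 h, where the XX median was 0.33.

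The mean log2(CPM + 1) over the XX-higher genes was 3.02 ± 0.12 (SD, n = 4) in XX cells at 0 h, 4.16 ± 0.14 at 24 h and 4.46 ± 0.07 at 72 h. In XY cells it was 2.89 ± 0.05 at 0 h, 2.67 ± 0.08 at 24 h and 2.61 ± 0.12 at 72 h. Over the XY-higher genes it was 2.17 ± 0.15 in XY cells at 0 h, 3.50 ± 0.17 at 24 h and 3.93 ± 0.11 at 72 h, and 2.04 ± 0.09, 1.98 ± 0.08 and 2.39 ± 0.18 in XX cells. The XX libraries thus stayed near their 0 h level for the XY-higher genes at 24 h and were somewhat above it at 72 h. By gene, the median XY-higher gene was 1.32 higher at 24 h than at 0 h in XY cells and -0.06 in XX cells, and 1.74 and 0.33 at 72 h.

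**Figure D2:**
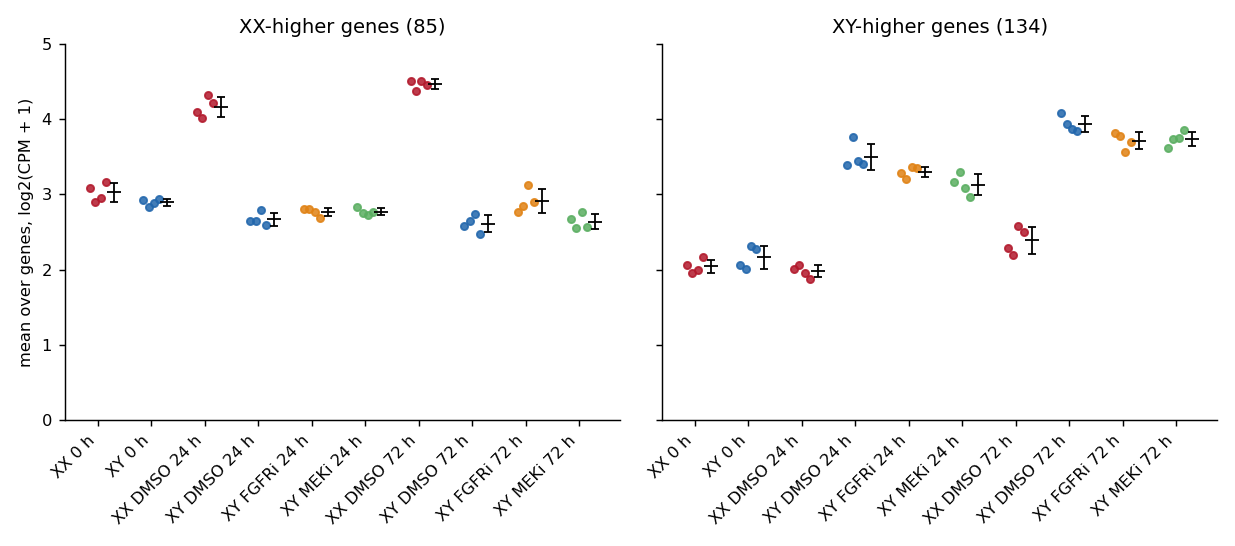
Mean log2(CPM + 1) over the 85 XX-higher genes (left) and the 134 XY-higher genes (right) in each library, by group. Points are libraries, bars are the mean ± SD of 4 libraries, and colours mark XX (red), XY without inhibitor (blue), FGFRi (orange) and MEKi (green). With either inhibitor the XY libraries stayed at 2.55 to 3.13 for the XX-higher genes, below all XX libraries in culture (4.01 to 4.51).

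Among the XX-higher genes, the largest difference reached at both times belonged to *Slc35f1* (a member of the solute carrier family 35, expressed in brain), on chromosome 10 from 52566629 to 52987718. In XX cells it had 4.17, 2.52, 2.17 and 1.14 CPM at 0 h, 55.7, 42.5, 40.8 and 28.9 CPM at 24 h and 50.6, 46.5, 46.3 and 61.3 CPM at 72 h. In XY cells it had 5.68, 3.71, 3.24 and 1.67 CPM at 0 h, 0, 1.59, 3.51 and 4.99 CPM at 24 h and 0.344, 3.0, 1.49 and 1.90 CPM at 72 h. All cultured XX libraries stood far above every XY library, which remained low throughout. *Pln* (phospholamban, an inhibitor of the SERCA calcium pump in heart muscle) lies 211903 bases further along the same chromosome. It had no count in any of the 8 libraries at 0 h, 7.01, 4.86, 6.64 and 5.55 CPM in XX cells at 24 h and 22.2, 21.5, 24.4 and 19.8 CPM at 72 h. Of the 8 cultured XY libraries without inhibitor, 1 had a count of *Pln*, at 0.264 CPM. *Pln* was thus present in every cultured XX library and nearly absent from XY cells. *Gm47623* and *Gm47621*, gene models of the biotype TEC (awaiting experimental evidence) inside *Slc35f1* on its strand, were also XX-higher, and their reads cannot be told apart from those of *Slc35f1*.

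*Nr5a2* and *Col8a1*, named after their values were seen, had small differences at 24 h and the largest ones of all 219 genes at 72 h. *Nr5a2* (a nuclear receptor needed in granulosa cells for ovulation) had 7.01, 1.79, 6.16 and 5.55 CPM in XX cells at 24 h and 65.7, 49.9, 55.5 and 62.9 CPM at 72 h. Its 12 XY libraries without inhibitor were between 0 and 2.27 CPM. *Col8a1* (a short-chain collagen) had 15.1, 7.93, 12.8 and 6.74 CPM in XX and 7.15, 5.02, 3.31 and 3.07 CPM in XY cells at 24 h, and 226, 137, 193 and 245 CPM in XX and 4.47, 2.0, 5.47 and 2.38 CPM in XY cells at 72 h. In both genes, 1 XX library at 24 h lay below the highest XY library, and at 72 h every XX library was far above all XY libraries. The differences of group means at 72 h were 5.0 for *Nr5a2* and 5.50 for *Col8a1* in log2(CPM + 1). Because the 72 h libraries are in set 4, the gain from 24 h to 72 h lies between sets, while the XX and XY libraries compared at 72 h share a set.

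Other XX-higher genes parted on both sides. *Pcsk6* (a proprotein convertase that activates TGF-β family ligands) had 61.3, 63.5, 73.9 and 102 CPM in XX and 63.9, 62, 76.9 and 75 CPM in XY cells at 0 h. At 72 h it had 251, 143, 218 and 240 CPM in XX and 22, 25, 17.4 and 32.9 CPM in XY cells. The XX libraries were above the 0 h range and the XY libraries below it. The metallothioneins *Mt1* and *Mt2*, small metal-binding proteins encoded 5502 bases apart on chromosome 8, differed likewise. *Mt2* had 27.4, 78.8, 43.5 and 41.6 CPM in XX and 4.82, 5.50, 6.96 and 1.90 CPM in XY cells at 72 h, against 12.6 to 27.0 CPM in the 0 h libraries of both kinds. *Apoa1* (the main protein of high-density lipoprotein) had 23.6, 22.7, 20.7 and 16.6 CPM in XX and 0.344, 3.0, 0 and 0 CPM in XY cells, with 3.78 to 7.97 CPM at 0 h. For these genes the XX and XY libraries did not overlap at 72 h. *Krt8* (keratin 8, of simple epithelia) came apart by its level in XY cells alone. It had 99.9, 125, 128 and 89.2 CPM in XX and 45.4, 42.8, 34.9 and 50.7 CPM in XY cells at 24 h, with 70.3 to 113 CPM in the 8 libraries at 0 h. The XX libraries thus stayed around the 0 h range while the XY libraries lay below it, and its partner *Krt18* fell just outside the 0 h limit.

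The interferon-inducible XX-higher genes named above are no fixed list and have no test as a group. At 24 h, *Isg15* had 2.80, 3.58, 4.74 and 2.38 CPM and *Rtp4* 3.15, 5.63, 4.27 and 6.34 CPM in XX cells. *Isg15* had 15.1, 14.2, 15.4 and 18.7 CPM in XX and 4.82, 12, 8.46 and 4.76 CPM in XY cells at 72 h, and *Rtp4* had 16.1, 18.1, 11.7 and 18.7 and 8.95, 8.0, 6.96 and 4.29 CPM. For both genes all XX libraries were above all XY libraries, and the XY libraries also held more than at 24 h, when *Isg15* was at 1.43, 1.06, 0.827 and 0 CPM and *Rtp4* at 1.43, 0.793, 2.07 and 2.30 CPM. *Ifit3* had 6.14, 7.37, 13 and 2.60 CPM in XX and 0.688, 1.0, 0.995 and 2.86 CPM in XY cells at 72 h, where 1 XX library lay within the XY range.

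Among the XY-higher genes, *Cyp11a1* (the side-chain cleavage enzyme that starts steroid synthesis, a marker of fetal Leydig cells) had 26.5, 25.4, 30.1 and 39.6 CPM in XY and 29.6, 25.2, 30.4 and 17.1 CPM in XX cells at 0 h. It had 132, 157, 127 and 172 CPM in XY and 8.06, 14.6, 9.01 and 18.2 CPM in XX cells at 24 h, and 90.9, 104, 166 and 135 CPM in XY and 6.61, 14.7, 43.8 and 14.6 CPM in XX cells at 72 h. The XY libraries stood above the 0 h range and most XX libraries below it. The sum of the 10 listed fetal Leydig markers was 925 to 1201 CPM in XY and 389 to 413 CPM in XX cells at 24 h, but 648 to 918 CPM in XY and 730 to 882 CPM in XX cells at 72 h. *Insl3* was at 0 in XX cells at all 3 times. *Stk32a* (a serine/threonine kinase) was present in every cultured XY library, at 8.23, 17.2, 4.96 and 7.29 CPM at 24 h and 4.47, 7.50, 4.48 and 11.9 CPM at 72 h. In the 12 XX libraries it did not exceed 1.23 CPM, and it had no count in XY cells at 0 h.

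*Aplnr* (the apelin receptor, known from venous endothelial cells) had the largest difference of all XY-higher genes at 24 h. In XY cells it had 34.6, 21.7, 34.7 and 43.3 CPM at 0 h, 61.9, 92.3, 70.7 and 52.2 CPM at 24 h and 15.8, 26.5, 13.9 and 16.2 CPM at 72 h. In XX cells it had 20.0, 19.3, 23.9 and 29.7 CPM at 0 h, 4.21, 6.65, 0.948 and 4.36 CPM at 24 h and 0, 3.40, 6.79 and 1.56 CPM at 72 h. Both kinds of cells were lower at 72 h than at 0 h, XX cells by more. *Lrrc55* (an auxiliary subunit of BK potassium channels) lies 22410 bases away on chromosome 2 and had 8.59, 13.5, 7.24 and 6.14 CPM in XY cells at 24 h and no count in any XX library then. None of the 17 endothelial markers listed was among the 219 genes, but their sum was also higher in XY cells, at 349 to 533 CPM against 167 to 228 CPM in XX cells at 24 h, and at 334 to 400 against 190 to 320 CPM already at 0 h. The part of endothelial cells in the *Aplnr* difference was not tested. *Hba-a1* and *Hbb-y*, globin genes of red blood cells, had lower group means at 24 h than at 0 h, by more in XX cells. *Hba-a1* was at 2128 to 3695 CPM in the 8 libraries at 0 h, and at 2130, 1788, 995 and 1319 CPM in XY and 481, 375, 811 and 487 CPM in XX cells at 24 h. The XY libraries were all above the XX libraries at 24 h, and the groups overlapped at 72 h. The 12 listed erythroid genes in the table were together at 2976 to 8113 CPM in XY and 1008 to 2183 CPM in XX cells at 24 h. The part of red blood cells left in the samples was not tested for any other gene, and reads of near-identical globin genes may be split between copies.

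Some XY-higher genes were near 0 before culture and highest at 72 h. *Bcan* (brevican, a matrix proteoglycan of the nervous system) had 9.30, 5.55, 4.14 and 5.37 CPM in XY cells at 24 h and 46.5, 48, 62.7 and 18.6 CPM at 72 h, with 5.67, 3.40, 8.33 and 5.20 CPM in XX cells at 72 h. *Hrk* (harakiri, a pro-apoptotic BH3-only protein) had 17.6, 15, 14.4 and 11.4 CPM in XY and 0, 1.13, 1.85 and 0.520 CPM in XX cells at 72 h. In both, all XY libraries were well above all XX libraries at 72 h. *Nfix* (a transcription factor of the nuclear factor I family, named after its values were seen) was higher with time in both kinds of cells. It had 6.63, 10.1, 13 and 9.16 CPM in XY and 11.3, 5.46, 8.69 and 6.48 CPM in XX cells at 0 h, and 160, 120, 130 and 130 CPM in XY and 60.0, 58.4, 46.9 and 75.9 CPM in XX cells at 72 h. *Pappa* (a protease that cleaves IGF-binding proteins, also named after its values were seen) had 115, 113, 135 and 94.8 CPM in XY and 22.2, 11.9, 28.1 and 20.8 CPM in XX cells at 72 h, against 16.2 to 28.2 CPM at 0 h. Here the XX libraries remained within or close to the 0 h range and the XY libraries stood apart.

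**Figure D3:**
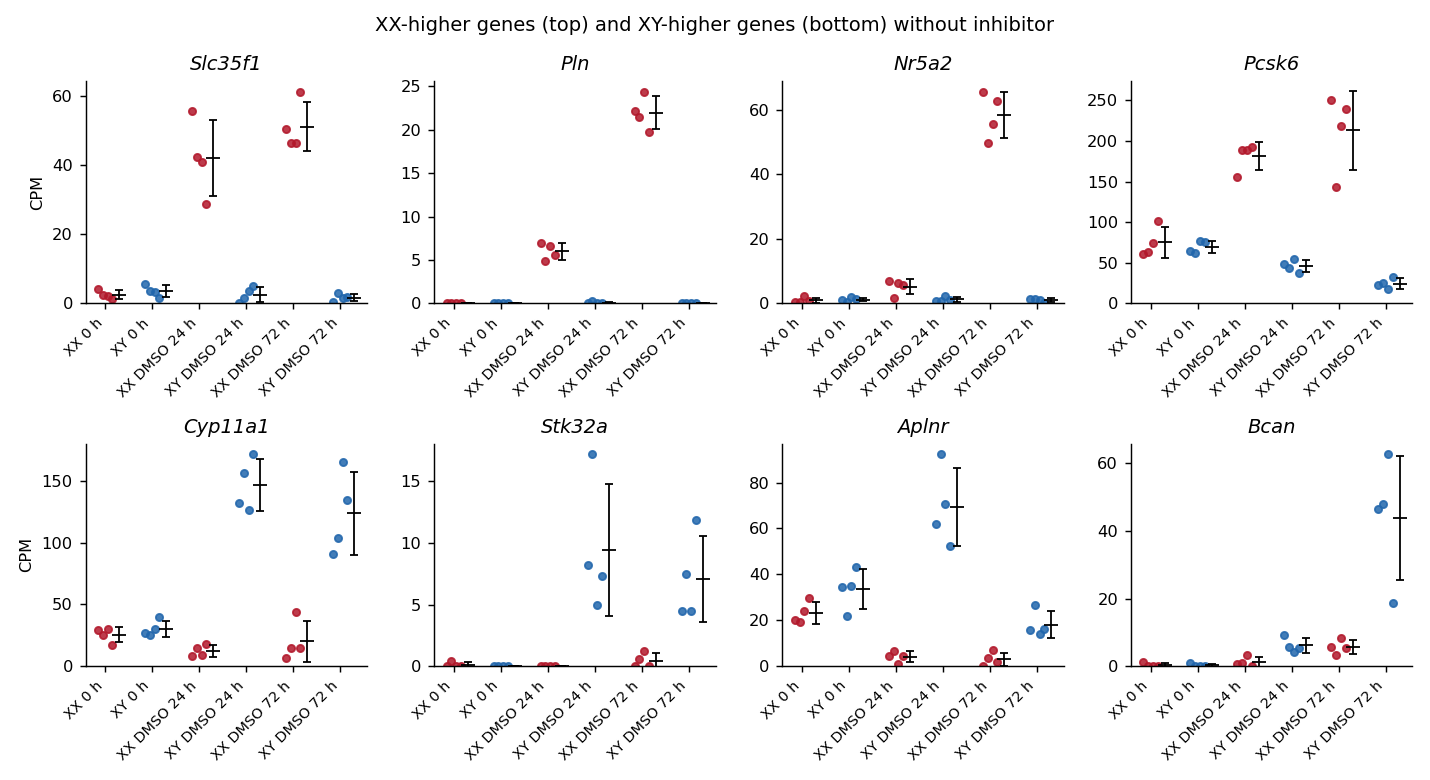
CPM in each XX (red) and XY (blue) library without inhibitor for 4 XX-higher genes (top row) and 4 XY-higher genes (bottom row), by group. Points are libraries and bars are the mean ± SD of 4 libraries, on linear axes that start at 0. The groups overlap at 0 h in each panel, and in *Nr5a2* and *Bcan* the larger difference is at 72 h.

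Of 26 gene lists (cell types, signalling pathways and processes), 11 held 1 or 2 of the 219 genes each. Besides *Krt8* (coelomic epithelium), the XX-higher genes on a list included *Sycp3* (a protein of the synaptonemal complex, meiosis). *Sycp3* had 23.8, 18.7, 13.7 and 35.3 CPM in XX and 11.1, 5.55, 3.93 and 7.68 CPM in XY cells at 24 h. The summed meiosis list was 306 to 402 CPM in XX and 147 to 170 CPM in XY cells at 24 h, while the germ cell identity list, with *Pou5f1* and *Ddx4*, overlapped between them at 158 to 313 and 170 to 235 CPM. The gate would remove germ cells, and the part of any that remained was not tested. *Tex101*, a germ cell surface protein, was also XX-higher, with 11.6, 8.44, 5.69 and 13.1 CPM in XX and 1.43, 0.793, 0.827 and 1.54 CPM in XY cells at 24 h. The XX libraries lay above the XY libraries for both genes at 24 h and overlapped with them at 72 h.

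The XY-higher genes on a list, besides *Cyp11a1* and the globins, included *Bmp5* (a BMP ligand), *Hoxd10* and *Hoxd3* (HOX transcription factors), *Ogn* (osteoglycin, a matrix proteoglycan), *Dlk1* (a NOTCH-related protein of interstitial progenitors) and *Actg2* (smooth muscle actin). *Bmp5* came apart by its level in XX cells, with 1.75, 1.28, 1.42 and 2.77 CPM in XX and 5.72, 7.67, 12.6 and 9.59 CPM in XY cells at 24 h and 4.62 to 9.26 CPM at 0 h. *Hoxd10* had 25.4, 24.8, 24.2 and 22.3 CPM in XY and 3.15, 7.16, 7.11 and 5.15 CPM in XX cells at 24 h. All XY libraries were above all XX libraries in both genes. *Ogn* had 27.9, 22.5, 21.4 and 33.3 CPM in XY and 7.56, 3.40, 12.7 and 12 CPM in XX cells at 72 h, also without overlap. *Hoxd3*, *Dlk1* and *Actg2* reached at most 16.1 CPM in any library.

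By biotype, 189 genes were protein coding (86.3%, against 56.2% of genes with a count on these chromosomes) and 18 were TEC models (8.22% against 7.32%). There were also 10 long non-coding RNAs and 2 pseudogenes, and 15 of the 18 TEC models overlapped a protein-coding gene on the same strand. The background holds every gene with a count, however low, whereas the rule needed a difference of at least 1 and so favours genes at higher levels. Nothing is read from these shares. Within 250000 bases of each other lay 19 pairs, of which 16 had the same direction, and no background was computed for this number. Besides the pairs named above these include *Hoxd10* with *Hoxd3*, *Mndal* with *Ifi203* (39523 bases apart) and *Pi15* with *Crispld1* (96095 bases apart). Of the 3 pairs with opposite directions, *Cacng4* (XY-higher) and *Cacng5* (XX-higher) encode related calcium channel subunits 79768 bases apart. *Cacng5* had 21.7, 27.9, 29.4 and 29.3 CPM in XX and 1.79, 1.85, 0.620 and 1.15 CPM in XY cells at 24 h, and *Cacng4* had 19.6, 18.7, 11.4 and 17.8 and 32.6, 52.3, 30.0 and 29.2 CPM. The order of XX and XY was thus reversed between these neighbours, without overlap in either gene. *Ap1g2* and *Jph4*, another pair of opposite direction, overlap on the same strand at their ends, so that their counts are uncertain.

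The response to inhibitors was tested in XY cells, in 5 comparisons, with edgeR's quasi-likelihood test and Benjamini-Hochberg adjustment over 15125 genes. A gene was called at an adjusted p below 0.05 and a fold change of at least 1.5. A stricter test, voom and treat of limma, called 1 gene in place of 30 between MEKi and FGFRi at 72 h, and 12 in place of 45, 4 in place of 37, 0 in place of 16 and 3 in place of 21 in the comparisons in the order below (FGFRi over time, MEKi and FGFRi against DMSO at 72 h, and MEKi against DMSO at 24 h). Over all 15125 genes the stricter test called 90, 160, 75, 0 and 88 in the same order. Between MEKi and FGFRi, the share called among the genes described here was then not above that over all genes. Of the 219 genes, 195 passed the filter on low counts (71 XX-higher and 124 XY-higher) and 24 were not tested. A gene high in 1 group could pass through that group alone, so the counts below describe the genes tested and not all 219. In 2 of the comparisons, MEKi against FGFRi at 72 h and FGFRi at 72 h against 24 h, no library had been used by the rule, and both lie within set 4. The other 3 compare an inhibitor with DMSO. They share the XY DMSO libraries with the rule, a choice that favours values closer to XX in the treated libraries, and are a description in this respect.

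Between MEKi and FGFRi at 72 h, 9 of 71 XX-higher genes were called, all lower with MEKi, against 4.69% lower and 1.74% higher (6.43% in all) of the genes tested. Of 124 XY-higher genes, 11 were called higher and 10 lower with MEKi. The median log2 fold change was -0.35 for the XX-higher and 0.21 for the XY-higher genes, and 0.01 over all genes. The count of genes called depended on 1 library, with 30 in all and 19 without replicate M5 of FGFRi at 72 h.

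*Egr2* (an immediate early transcription factor whose expression follows ERK activity), an XX-higher gene, had 18.3, 15.5, 15.8 and 16.8 CPM with MEKi and 43.9, 47.9, 48.1 and 53.2 CPM with FGFRi at 72 h. The groups did not overlap (log2 fold change -1.51, SE 0.259, adjusted p = 3.17e-05). *Rtp4* had 0.916, 1.51, 2.53 and 2.63 CPM with MEKi and 6.27, 5.37, 7.24 and 8.86 CPM with FGFRi, again without overlap (log2 fold change -1.81, SE 0.441, adjusted p = 0.00408). *Isg15* did not pass (log2 fold change -1.68, SE 0.609, adjusted p = 0.0699). It had 0.916, 0.756, 1.58 and 2.63 CPM with MEKi and 3.42, 1.24, 10.5 and 3.38 CPM with FGFRi, and 2 MEKi libraries lay above the lowest FGFRi library. *Deptor* (an inhibitor of mTOR) had 6.87, 5.67, 10.4 and 7.89 CPM with MEKi and 22.2, 17.3, 23.9 and 17.7 CPM with FGFRi (log2 fold change -1.34, SE 0.235, adjusted p = 4.70e-05). *Spsb4* (a substrate adaptor of ubiquitin ligases) had 8.25, 6.05, 9.47 and 5.78 and 13.1, 15.7, 32.9 and 22.4 CPM (log2 fold change -1.48, SE 0.266, adjusted p = 7.51e-05). In both genes every MEKi library was below every FGFRi library. *Aldh3b1* (an aldehyde dehydrogenase) was also lower with MEKi (log2 fold change -1.40, SE 0.22, adjusted p = 7.30e-06), with 13.7, 11, 22.7 and 15.2 and 20.0, 35.1, 69.1 and 43.5 CPM and 1 FGFRi library within the MEKi range. *Stim1*, *Dsg2*, *Rnf19b* and *Mdfic* complete the 9. Leaving out any 1 of 5 libraries ended the call of *Dsg2* (log2 fold changes -0.80 to -0.68), and any 1 of 4 that of *Rnf19b* (-0.74 to -0.63) and *Mdfic* (-0.74 to -0.66).

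Among the XY-higher genes, *Aplnr* had 0.458, 1.51, 2.84 and 0 CPM with MEKi and 5.13, 16.1, 5.07 and 7.18 CPM with FGFRi at 72 h (log2 fold change -2.53, SE 0.528, adjusted p = 0.000689). Every MEKi library was below every FGFRi library. *Foxq1* (a forkhead transcription factor) had 11.9, 5.67, 8.52 and 7.89 CPM with MEKi and 26.8, 19.8, 48.1 and 22.8 CPM with FGFRi (log2 fold change -1.77, SE 0.335, adjusted p = 0.00016), and *Bcan* had 11.5, 18.9, 22.1 and 19.5 and 44.5, 33.4, 86.8 and 40.1 CPM (log2 fold change -1.48, SE 0.309, adjusted p = 0.000693). *Plppr4* (a phospholipid phosphatase-related membrane protein) had 10.1, 17.4, 17.4 and 13.7 and 38.2, 28.1, 45.2 and 26.2 CPM (log2 fold change -1.18, SE 0.215, adjusted p = 8.68e-05). *Pappa* had 43.1, 48.4, 56.5 and 45.2 and 75.8, 103, 128 and 97.9 CPM (log2 fold change -1.03, SE 0.15, adjusted p = 1.57e-06). The groups did not overlap in these 4 genes. *Hrk* was lower too (log2 fold change -1.57, SE 0.396, adjusted p = 0.0057), with 5.04, 3.78, 9.79 and 9.46 CPM with MEKi and 14.8, 18.6, 31.8 and 19.4 CPM with FGFRi, but was no longer called without replicate M5 of FGFRi (log2 fold change -1.30). *Upp1*, *Nuak2*, *Pde4b* and *Hba-a1* complete the 10 that fell. For *Nuak2*, *Pde4b* and *Pappa*, calls with single libraries left out are not reported here. Markers of several cell types moved in the same comparison. Of the Sertoli markers 19 of 23 were lower with MEKi and none higher, and their sum was 1633 to 2270 CPM with MEKi and 3259 to 5515 CPM with FGFRi. Of the endothelial markers 8 of 17 were lower and 1 higher, with sums of 135 to 160 and 150 to 241 CPM. Of the smooth muscle markers 4 of 13 were lower and none higher, with sums of 1105 to 1287 and 846 to 1283 CPM, and 2 of 11 erythroid genes tested were lower and none higher. The part of these cells in the changes of the 219 genes was not tested.

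Higher with MEKi than with FGFRi were *Lmcd1* (a LIM-domain transcriptional cofactor), at 64.2, 62.4, 68.2 and 83.1 and 35.9, 38.4, 25.3 and 38.8 CPM (log2 fold change 1.04, SE 0.21, adjusted p = 0.000441), and *Fbln5* (fibulin 5, of elastic fibres), at 57.3, 55.2, 85.9 and 75.7 and 36.5, 34.3, 42.7 and 37.6 CPM (log2 fold change 0.89, SE 0.162, adjusted p = 9.30e-05). *Spon1* (spondin 1, a secreted matrix protein) had 34.4, 32.5, 39.5 and 34.2 and 24.5, 21.5, 15.6 and 18.1 CPM (log2 fold change 0.87, SE 0.211, adjusted p = 0.00389), and *Cacng4* had 52.2, 44.6, 47.4 and 35.8 and 31.4, 27.3, 14.5 and 22.8 CPM (log2 fold change 0.97, SE 0.222, adjusted p = 0.00213). No FGFRi library reached the lowest MEKi library in any of the 4. *Dio2* (the deiodinase that activates thyroid hormone) was higher (log2 fold change 1.33, SE 0.444, adjusted p = 0.0446), but leaving out any 1 of 5 libraries ended the call, with log2 fold changes of 0.87 to 1.45.

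**Figure D4:**
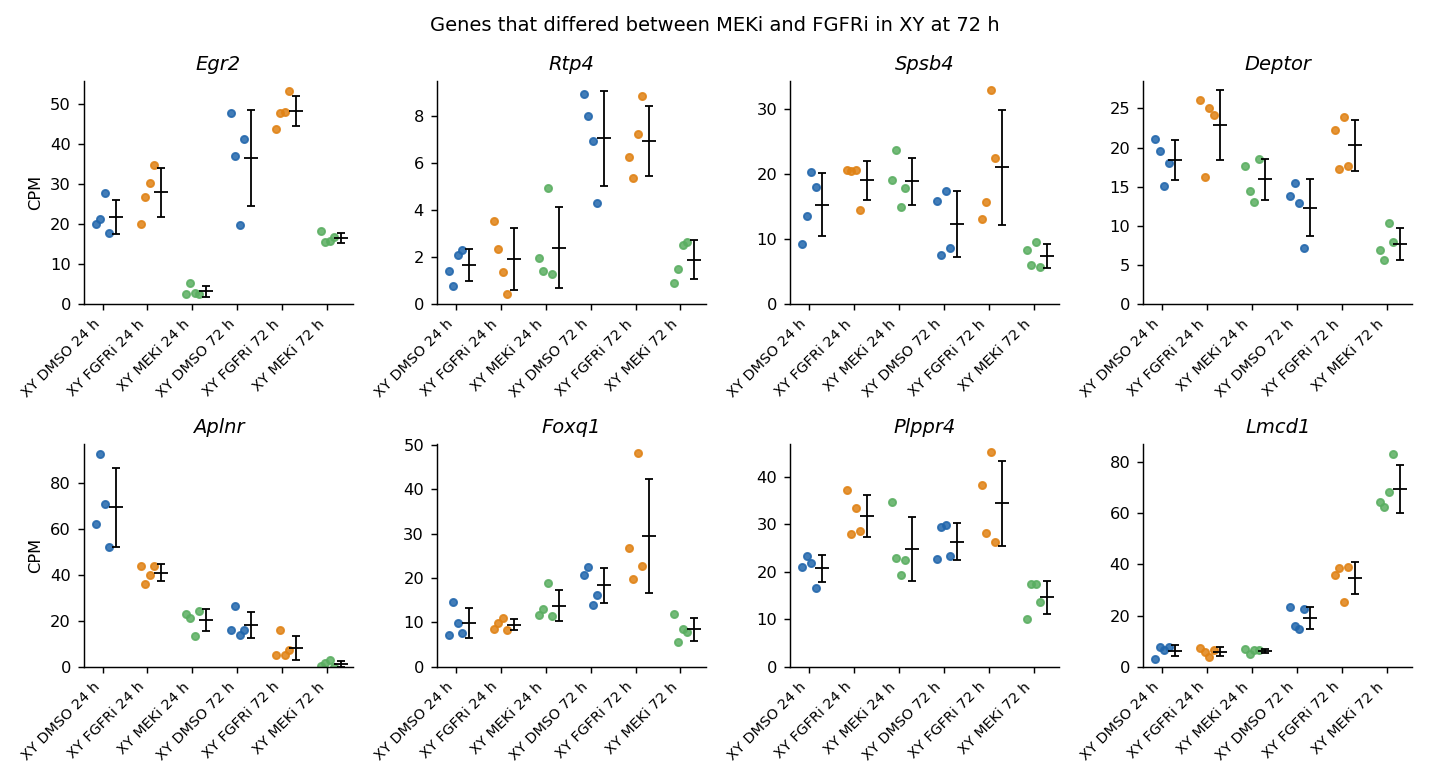
CPM in each XY library with DMSO (blue), FGFRi (orange) and MEKi (green) at 24 h and 72 h for 4 XX-higher genes (top row) and 4 XY-higher genes (bottom row) called between MEKi and FGFRi at 72 h. Points are libraries and bars are the mean ± SD of 4 libraries, on linear axes that start at 0. *Egr2* is lowest with MEKi at both times, and *Lmcd1* is highest with MEKi at 72 h.

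From 24 h to 72 h with FGFRi, 32 of 124 XY-higher genes rose and 5 fell, and 6 of 71 XX-higher genes rose and 2 fell. Of all genes tested, 4.38% rose and 2.33% fell (6.7% in all). The median log2 fold change was 0.34 for XY-higher and 0.21 for XX-higher genes, against -0.01 over all genes. *Hrk* rose from 0, 0, 0.457 and 0.439 CPM to 14.8, 18.6, 31.8 and 19.4 CPM (log2 fold change 6.16, SE 0.676, adjusted p = 1.39e-09), and *Bcan* from 3.52, 6.41, 6.85 and 5.71 CPM to 44.5, 33.4, 86.8 and 40.1 CPM (log2 fold change 3.17, SE 0.37, adjusted p = 7.63e-09). *Nfix* rose from 18.1, 20.4, 22.4 and 29 CPM to 140, 115, 89.4 and 97.1 CPM (log2 fold change 2.26, SE 0.186, adjusted p = 2.67e-13). All libraries at 72 h were above all at 24 h in these 3 genes. *Lmcd1* (log2 fold change 2.53, SE 0.275, adjusted p = 1.14e-09), *Prok2* (prokineticin 2, a secreted ligand; log2 fold change 4.18, SE 0.791, adjusted p = 0.000176), *Pitx1* (a homeobox factor; log2 fold change 2.27, SE 0.359, adjusted p = 7.52e-06) and *Ogn* (log2 fold change 1.91, SE 0.334, adjusted p = 3.95e-05) also rose. *Aplnr* fell from 43.7, 36.1, 39.7 and 43.9 CPM to 5.13, 16.1, 5.07 and 7.18 CPM (log2 fold change -2.29, SE 0.316, adjusted p = 4.25e-07), and its group mean was also lower at 72 h than at 24 h with DMSO. Of the endothelial markers 10 of 17 fell and 1 rose, and 5 of 11 erythroid genes tested fell and none rose. Of the genes listed for proliferation 10 of 18, and of those for glycolysis and hypoxia 7 of 14, rose and none fell. The part of these in the changes of the 219 genes was not tested. Among the XX-higher genes, *Rtp4* rose from 3.52, 2.33, 1.37 and 0.439 CPM to 6.27, 5.37, 7.24 and 8.86 CPM (log2 fold change 1.86, SE 0.46, adjusted p = 0.00438). *Isg15* rose as well (log2 fold change 2.06, SE 0.662, adjusted p = 0.0383), but lost its call when any 1 of 5 libraries was left out, with log2 fold changes of 1.22 to 2.25. *Pcsk6* fell from 45.3, 44.3, 37 and 52.7 CPM to 13.1, 21.9, 20.3 and 17.3 CPM (log2 fold change -1.30, SE 0.204, adjusted p = 5.46e-06), without overlap. *Mmp15* also fell, and *Lgals2*, *Egr2* and *Folr1* rose. The calls of these 3 genes that rose were lost when single libraries were left out (log2 fold changes 2.76 and 2.82 for *Lgals2*, 0.65 to 0.81 for *Egr2* and 0.48 for *Folr1* without replicate M5 at 72 h).

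**Figure D5:**
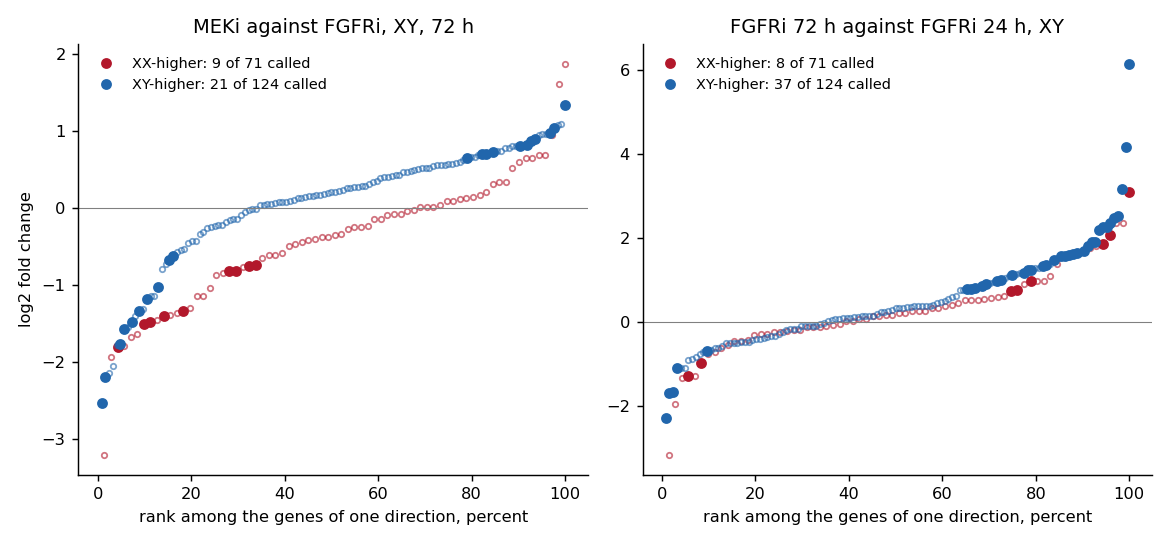
Log2 fold changes of the tested genes in the comparisons whose libraries the rule did not use, MEKi against FGFRi at 72 h (left) and FGFRi at 72 h against 24 h (right), in XY cells. The x axis ranks the genes of 1 direction from the lowest to the highest log2 fold change, in percent, red is XX-higher (71 genes) and blue XY-higher (124 genes), and filled points were called. The red points lie lower than the blue ones on the left (medians -0.35 and 0.21), and the called blue points on the right are mostly above 0 (32 of 37).

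With each inhibitor the XY level was placed on the way from XY to XX in DMSO, with 0% for the XY and 100% for the XX group mean of log2(CPM + 1). For the 85 XX-higher genes the medians were 7.83% with MEKi at 24 h, 1.81% with MEKi at 72 h and 18.2% with FGFRi at 72 h. For the 134 XY-higher genes they were 23.6%, 10.9% and 21.3%. With FGFRi at 24 h, where the set differs, they were 10.1% and 13.1%. More than 50% of the way was reached by 9, 8 and 7 of the 85 XX-higher genes with MEKi at 24 h, MEKi at 72 h and FGFRi at 72 h, and by 29, 25 and 25 of the 134 XY-higher genes. Chance differences among the 4 XY DMSO libraries enter both the rule and these values, and favour values above 0.

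At 24 h, MEKi against DMSO called 7 XX-higher genes higher and 1 lower, and 2 XY-higher genes higher and 11 lower, against 1.29% higher and 1.98% lower (3.27% in all) of the genes tested. Without replicate M2 of MEKi, which was placed in its group by its column name and the study's list of libraries, 15 genes were called in place of 21. *Krt8* had 85.8, 85.5, 89.6 and 112 CPM with MEKi and 45.4, 42.8, 34.9 and 50.7 CPM with DMSO (log2 fold change 1.16, SE 0.219, adjusted p = 0.000249), without overlap, and all MEKi libraries lay within the range of the 0 h libraries. On the coelomic epithelium list, which holds *Krt8*, 2 of 8 genes tested were called higher and none lower. The sum of this list was 524 to 642 CPM with MEKi and 435 to 562 CPM with DMSO. *Anxa2* (annexin A2, a membrane scaffold protein) had 839, 624, 718 and 735 and 530, 388, 485 and 499 CPM (log2 fold change 0.67, SE 0.112, adjusted p = 3.24e-05), but without replicate M3 of DMSO its log2 fold change was 0.57 and below 1.5-fold. *Tex101* had 2.93, 4.57, 9.01 and 9.61 and 1.43, 0.793, 0.827 and 1.54 CPM (log2 fold change 2.56, SE 0.56, adjusted p = 0.00202), and *Sycp3* had 15.1, 17.9, 29.7 and 28.8 and 11.1, 5.55, 3.93 and 7.68 CPM (log2 fold change 1.78, SE 0.388, adjusted p = 0.00191). In both, every MEKi library was above every DMSO library. The germ cell identity list moved with them, at 338 to 572 CPM with MEKi and 170 to 235 CPM with DMSO (16 of 16 genes at 1 CPM or more in both groups), as did the meiosis list at 247 to 385 and 147 to 170 CPM. Of the genes tested, 4 of 12 identity and 5 of 14 meiosis genes were called higher, and 1 identity gene lower. The part of germ cells in the result was not tested. *Egr2* was the XX-higher gene called lower, with 2.44, 5.28, 2.70 and 2.56 CPM with MEKi and 20.0, 21.4, 27.7 and 17.7 CPM with DMSO (log2 fold change -2.61, SE 0.366, adjusted p = 1.00e-06), farther from XX cells.

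The XY-higher genes called lower with MEKi at 24 h included *Aplnr*, at 22.9, 21.1, 13.5 and 24.4 CPM with MEKi and 61.9, 92.3, 70.7 and 52.2 CPM with DMSO (log2 fold change -1.71, SE 0.27, adjusted p = 1.01e-05). *Nrp1* (neuropilin 1, a receptor for semaphorins and VEGF) had 61, 78.1, 47.7 and 75 and 91.9, 170, 141 and 147 CPM (log2 fold change -1.02, SE 0.16, adjusted p = 9.21e-06). *Mndal* had 0, 0.703, 0.450 and 1.28 and 6.44, 7.14, 3.72 and 4.99 CPM (log2 fold change -3.10, SE 0.686, adjusted p = 0.00235), and *Ifi203* was called as well (log2 fold change -4.17, SE 0.867, adjusted p = 0.001). *Svep1* (a large adhesion protein of vessels and mesenchyme) had 6.34, 5.63, 7.66 and 7.69 and 20.4, 17.4, 12.6 and 12.7 CPM (log2 fold change -1.16, SE 0.264, adjusted p = 0.00326). The groups did not overlap in *Aplnr*, *Nrp1*, *Mndal* and *Svep1*. Of 17 endothelial markers 15 were called lower and none higher, their sum was 95.5 to 117 CPM with MEKi and 349 to 533 CPM with DMSO, and their part in the change of these genes was not tested. *H2-Q10* (a class I histocompatibility gene, with close relatives that can share its reads) went the other way, at 29.8, 25.7, 52.2 and 35.9 CPM with MEKi and 5.72, 3.97, 7.03 and 6.91 CPM with DMSO (log2 fold change 2.65, SE 0.301, adjusted p = 7.07e-09).

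At 72 h, MEKi against DMSO called 7 XX-higher genes higher and 4 lower, and 10 XY-higher genes higher and 16 lower, against 2.29% higher and 4.19% lower (6.47% in all) of the genes tested. The 4 XX-higher genes that fell were *Egr2* (log2 fold change -1.12, SE 0.265, adjusted p = 0.00344), *Rtp4* (log2 fold change -1.83, SE 0.441, adjusted p = 0.00401), *Isg15* (log2 fold change -2.30, SE 0.587, adjusted p = 0.00647) and *Aldh3b1* (log2 fold change -0.78, SE 0.231, adjusted p = 0.0211). The DMSO libraries had 8.95, 8.0, 6.96 and 4.29 CPM of *Rtp4*, above all MEKi libraries. Leaving out any 1 of 4 libraries ended the call of *Aldh3b1*, with log2 fold changes of -0.73 to -0.63. *Mt1* rose, with 128, 115, 108 and 119 CPM with MEKi and 68.1, 74.5, 81.1 and 73.3 CPM with DMSO (log2 fold change 0.70, SE 0.178, adjusted p = 0.00659), as did *Ephx2* (soluble epoxide hydrolase; log2 fold change 1.11, SE 0.185, adjusted p = 2.97e-05) and *Anxa2* (log2 fold change 0.63, SE 0.112, adjusted p = 0.000105). The *Mt1* libraries with MEKi were above all DMSO libraries and below the XX libraries at the same time. *Anxa2* was not called without replicate M2 of DMSO (log2 fold change 0.53). *Cacng5* (log2 fold change 1.80), *Sez6l* (2.14), *Mt2* (1.05) and *Mzt2* (0.77) were also called higher, but each lost its call in more than 1 of the fits that left out a library. Without replicate M2 of DMSO, 3 XX-higher genes were called higher in place of 7. *Krt8* was not called at 72 h (log2 fold change 0.68, SE 0.249, adjusted p = 0.0664). On the coelomic epithelium list, which holds it, 5 of 8 genes tested were called higher and none lower. The sum of this list was 564 to 652 CPM with MEKi and 333 to 414 CPM with DMSO.

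Of the XY-higher genes, *Aplnr* fell the most at 72 h (log2 fold change -3.61, SE 0.469, adjusted p = 1.72e-07), from 15.8, 26.5, 13.9 and 16.2 CPM with DMSO to the MEKi values above, and its neighbour *Lrrc55* fell from 4.82, 6.50, 6.47 and 3.81 to 0.458, 0.378, 0.316 and 1.05 CPM (log2 fold change -3.24, SE 0.687, adjusted p = 0.00117). *Mndal* (log2 fold change -2.51, SE 0.595, adjusted p = 0.00355), *Pappa* (log2 fold change -1.20, SE 0.15, adjusted p = 6.80e-08), *Bcan* (log2 fold change -1.24, SE 0.312, adjusted p = 0.00572) and *Svep1* (log2 fold change -1.06, SE 0.227, adjusted p = 0.0012) fell as well. In *Aplnr*, *Lrrc55* and *Pappa* no MEKi library reached the DMSO range. *Foxq1* (log2 fold change -1.08, SE 0.346, adjusted p = 0.033), *Plppr4* (log2 fold change -0.79, SE 0.221, adjusted p = 0.0138) and *Ifi203* (log2 fold change -2.72, SE 0.707, adjusted p = 0.00763) were called but lost the call when 1 library was left out. For *Foxq1* this held for any 1 of 5 libraries (log2 fold changes -1.08 to -0.93), for *Plppr4* it was replicate M2 of MEKi (-0.66), and for *Ifi203* replicate M4 of MEKi (-2.21). Other XY-higher genes rose further from XX. *Lmcd1* went from 23.4, 16, 14.9 and 22.4 CPM with DMSO to 64.2, 62.4, 68.2 and 83.1 CPM with MEKi (log2 fold change 1.88, SE 0.222, adjusted p = 1.83e-08), *Fbln5* from 28.9, 38, 33.8 and 31.9 to 57.3, 55.2, 85.9 and 75.7 CPM (log2 fold change 1.09, SE 0.165, adjusted p = 4.72e-06), and *Cyp11a1* from 90.9, 104, 166 and 135 to 285, 197, 314 and 224 CPM (log2 fold change 1.08, SE 0.236, adjusted p = 0.00145). The groups did not overlap in these 3 genes. Of 8 listed fetal Leydig markers tested, 4 were called higher and none lower. Of the Sertoli markers 12 of 23 were lower and 1 higher, with a sum of 1633 to 2270 CPM with MEKi and 2023 to 3404 CPM with DMSO. Of the endothelial markers 11 of 17 were lower and none higher, with sums of 135 to 160 and 170 to 265 CPM, and 6 of 13 smooth muscle markers were lower and 2 higher. The part of these cells in the changes of the 219 genes was not tested. *Car10* (a carbonic anhydrase-related protein; log2 fold change 1.77, SE 0.396, adjusted p = 0.00205) and *Adamts17* (a secreted protease of the ADAMTS family; log2 fold change 1.22, SE 0.241, adjusted p = 0.000414) rose too.

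FGFRi against DMSO at 72 h called 4 XX-higher genes higher and none lower, and 6 XY-higher genes higher and 6 lower, against 0.866% higher and 0.939% lower (1.8% in all) of the genes tested. These counts rested on single libraries. In place of 16 genes in all, 4 were called without replicate M2 of DMSO, 6 without replicate M5 of FGFRi, 8 without replicate M6 of FGFRi and 8 without replicate M6 of DMSO. *Krt8* and *Svep1* were called with each library left out. *Krt8* had 63.8, 48.3, 77.1 and 65 CPM with FGFRi and 21.7, 56.5, 27.4 and 11.9 CPM with DMSO (log2 fold change 1.14, SE 0.243, adjusted p = 0.00427), where 1 DMSO library lay within the FGFRi range. On the coelomic epithelium list, which holds *Krt8*, 3 of 8 genes tested were called higher with FGFRi and none lower. The sum of this list was 522 to 635 CPM with FGFRi and 333 to 414 CPM with DMSO. The part of coelomic epithelium in the change of *Krt8* was not tested. *Svep1* had 13, 19.4, 12.7 and 16 and 37.9, 36.5, 28.4 and 27.6 CPM (log2 fold change -1.10, SE 0.228, adjusted p = 0.00342) without overlap, and its fall with MEKi had about the same size. *Mt1* was called (log2 fold change 0.78, SE 0.177, adjusted p = 0.00825), with 110, 130, 152 and 114 CPM with FGFRi, but not without replicate M5 of FGFRi (log2 fold change 0.68) or replicate M2 of DMSO (0.73). *Lmcd1* (log2 fold change 0.84, SE 0.229, adjusted p = 0.0328) lost its call when any 1 of 5 libraries was left out (0.75 to 0.95). Macrophage markers moved with both inhibitors at 72 h. Their sum was 61.4 to 212 CPM with DMSO, 28.3 to 39.2 CPM with FGFRi and 34.8 to 52.2 CPM with MEKi, with 7 and 9 of 11 tested markers lower and none higher. None of these markers is among the 219 genes, and their part in the changes was not tested.

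Some genes were called in more than 1 comparison with DMSO. MEKi moved *Anxa2*, *Aplnr*, *Ifi203*, *Mndal*, *Prex2*, *Ramp3* and *Svep1* toward XX at both 24 h and 72 h, and *Egr2* away from XX at both times, and no gene was called in opposite directions at these times. At 72 h, *Mt1*, *D630033O11Rik* and *Svep1* were called toward XX with both inhibitors, and *Lmcd1* and *Mgarp* away from it. Leaving out single libraries ended the call of *Mgarp* with MEKi in 7 fits (log2 fold changes 0.57 to 0.75) and with FGFRi in 5 (0.70 to 0.93), that of *D630033O11Rik* in 2 (-1.16 and -1.11) and 4 (-1.40 to -1.23), and that of *Prex2* with MEKi at 72 h in 4 (-1.76 to -1.53). The comparisons at a time share their DMSO libraries, and the rule used these too, which favours values closer to XX. No background over all genes was computed for repeated calls or their directions, and nothing is read from them. Levels with FGFRi at 24 h, which cannot be separated from the set, were 20.1, 26.8, 30.2 and 34.7 CPM for *Egr2*, 43.7, 36.1, 39.7 and 43.9 CPM for *Aplnr* and 7.54, 6.99, 8.22 and 7.03 CPM for *Svep1*. The genes with the largest differences between XX and XY cells at 72 h, *Nr5a2* and *Col8a1*, were at 0 to 1.81 and 1.05 to 5.07 CPM in the 8 XY libraries with an inhibitor at 72 h. *Slc35f1* was at 0 to 4.92 CPM in the same libraries and 46.3 to 61.3 CPM in XX cells.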

How the data were processed

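Somatic cells of 40 libraries were profiled by 3′ RNA-seq with unique molecular identifiers (UMIs). The authors mapped reads to GRCm39 with Rsubread within scPipe, assigned them to GENCODE exons and deposited a table of raw UMI counts per gene. The study's code counts with strand for germ cells, and the same was taken to hold here. The submitters' notes also name limma and edgeR.

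From these counts, CPM and log2(CPM + 1) on column totals gave the 219 genes. The genes, lists, motifs and tests were chosen with earlier results of these data known. Tests used edgeR 4.0.16 (R 4.3.3) on the counts with TMM scaling and filterByExpr, a mean per group over all 40 libraries and the quasi-likelihood test, and were tried on simulated data first. Alternatives used DESeq2 1.42.0 and limma 3.58.1, the latter with voom, quality weights and a 1.5-fold threshold as in the study. FGFRi against DMSO at 24 h was not tested, since its groups lie in different sets, which cannot be told apart from the inhibitor. The MEKi 24 h replicate M2 is not named in the submitters' sample descriptions and was placed by its column name and the study's list of library labels. No libraries were duplicates, since pairs within a group differed by 1.92 to 7.69 times the sampling variance (chi-square per degree of freedom, 60 pairs).

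Named genes are, in each direction, the 12 with the largest difference reached at both times among those of at least 5 CPM, the 5 highest and 5 lowest fold changes called in each comparison, genes of the lists, and those nearest to the limits. *Ap1g2*, *Col8a1*, *Crispld1*, *Gm47621*, *Gm47623*, *Ifit3*, *Jph4*, *Nfix*, *Nr5a2*, *Nuak2*, *Oas1a*, *Pappa*, *Pde4b*, *Pi15* and *Ramp3* were named after their values were seen. Calls of these genes with single libraries left out are not reported here. Promoter sequences were read from GRCm39. Replicates were left out in turn, and other scalings, filters, limits and pseudocounts were tried. Some genes of the set are not reported here by name.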

Additional observations from a re-analysis of the deposited data

Results flagged for a closer look

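In 350 groups of 4 libraries (33 genes and the mean over each direction, in 10 groups), 1 library stood apart from the other 3 by a gap above the 95% critical value of Dixon's test in 15 cases. Chance gives about 1 in 20 for normally distributed values, which levels near 0 CPM are not. Groups without any count were among the 350 but could not be flagged. The number of cases is therefore not set against chance. In 8 of the cases only 1 library of the group held any count. These were *Pln* at 0.264 CPM in XY cells with DMSO at 24 h, 0.413 CPM with FGFRi at 72 h and 0.631 CPM with MEKi at 72 h, *Tex101* at 0.50 CPM in XY cells with DMSO at 72 h, *Bcan* at 1.25 CPM in XX and 0.947 CPM in XY cells at 0 h, *Hrk* at 0.530 CPM in XY cells at 0 h and *Stk32a* at 0.420 CPM in XX cells at 0 h.

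In the MEKi group at 24 h, the highest library of each gene, not the same one in all, had 112 CPM of *Krt8* (next 89.6), 5.28 CPM of *Egr2* (next 2.70) and 6.33 CPM of *Lrrc55* (next 3.60). With FGFRi at 24 h, the lowest library had 0 CPM of *Isg15* (next 1.32) and 14.5 CPM of *Spsb4* (next 20.4). *Pcsk6* was lowest at 156 CPM in 1 XX library at 24 h (next 189), and *Nfix* was highest at 60.3 CPM in 1 XY library with DMSO at 24 h (next 36.5).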

How the results depend on the processing

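Membership depended on the limits. With a 0 h limit of 0.25 the rule kept 118 genes and with a threshold of 1.5 in culture 48, in place of 219. A pseudocount of 0.5 gave 313 genes and 1 of 2 gave 169, and leaving out a library gave 201 to 243, with 65 genes kept every time. Many genes named above were not kept every time, among them *Slc35f1*, *Col8a1*, *Mt1*, *Isg15*, *Rtp4*, *Egr2*, *Deptor*, *Spsb4*, *Sycp3*, *Tex101* and *Cacng5*. The same held for *Aplnr*, *Lrrc55*, *Foxq1*, *Lmcd1*, *Hrk*, *Hba-a1*, *Mndal*, *Ifi203*, *Fbln5* and *Cacng4*. Those kept include *Pln*, *Pcsk6*, *Mt2*, *Apoa1*, *Nr5a2*, *Krt8*, *Cyp11a1*, *Stk32a*, *Bcan*, *Nfix*, *Pappa* and *Svep1*. Scaling CPM by TMM in place of column totals gave 212 genes, of which 202 were shared with the 219. These 212 were 95 XX-higher and 117 XY-higher genes, in place of 85 and 134. With 72 h in place of 24 h, neither side was counted for 2 XX-higher and 2 XY-higher genes. With a limit of 0.75 at 24 h, both sides were counted for 3 and neither for 18 XX-higher genes, and both for 3 and neither for 11 XY-higher genes. The cause was not tested for any of these.

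The count of genes called, in the order MEKi against FGFRi at 72 h, FGFRi at 72 h against 24 h, MEKi and then FGFRi against DMSO at 72 h, and MEKi against DMSO at 24 h, was 30, 45, 37, 16 and 21. By edgeR's glmTreat, which tests against a 1.5-fold change, it was 9, 17, 6, 0 and 8, and by limma's voom with quality weights and treat, 1, 12, 4, 0 and 3. For the counts of 0, in FGFRi against DMSO at 72 h, edgeR's unadjusted p was below 0.05 for 24 XX-higher and 43 XY-higher genes and DESeq2 called 14. The share of all genes with such a p was not computed, and the rule had used the DMSO libraries of this comparison. Nothing is read from the unadjusted values. The change to glmTreat is one of the threshold only, and voom and treat also change the model and the weights. DESeq2 called 37, 46, 40, 14 and 23. Over all 15125 genes, glmTreat called 208, 275, 132, 5 and 157. For voom and treat the numbers over all genes were 90, 160, 75, 0 and 88, and for DESeq2 1009, 1049, 1028, 285 and 542. Leaving out 1 library gave 19 to 34, 36 to 46, 27 to 39, 4 to 18 and 14 to 24. Of 113 calls of single named genes, none reversed under any alternative run, 111 held by DESeq2, 34 by glmTreat, 17 by voom and treat, and 60 with every library left out.

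Replicate numbers shared by groups were not used to pair the libraries in the main fits. Deviations of same-numbered libraries correlated at -0.081 to 0.133. In the order above, 1 of 6, 0 of 4, 2 of 6, 6 of 8 and 1 of 4 libraries correlated best with their own number. The 6 of 8 belong to FGFRi against DMSO at 72 h, where the correlations were 0.004 to 0.132. Whether the numbers mark pairs there was not tested. With the replicate block, 34, 25, 37, 21 and 11 genes were called, and 918, 501, 910, 297 and 263 over all genes tested in those fits. Depth limits genes near 1 CPM, where a library held a few counts.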
